A study of Arabidopsis thaliana with 20 samples.

Results

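The small auxin upregulated RNA (SAUR) genes outside the SAUR19 to SAUR24 cluster were examined for open chromatin at their promoters in Arabidopsis thaliana seedlings. Members were the nuclear protein-coding genes of the TAIR10.1 RefSeq annotation whose product names a SAUR-like auxin-responsive protein or whose symbol starts with SAUR. Of 79 such genes, 72 were kept of 27444 nuclear protein-coding genes. The 7 left out were the 6 genes of the SAUR19 to SAUR24 cluster and AT5G01830, which carries the symbol SAUR21 but has an ARM repeat product; AT5G18030 inside the cluster has SAUR21 as a synonym. Names are the annotation's SAUR numbers, and AT1G29510, listed under the symbol SAUR68, is called SAUR67 after the annotation's own note.

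DNase I cuts open chromatin more readily than packed chromatin, and DNase I-seq was done on nuclei of whole 7-day-old seedlings. All groups were the Col-0 line UBQ10:NTF::ACT2:birA, in which widely active promoters drive a nuclear tag and the ligase that biotinylates it, so nuclei of many cell types were pooled. One series started from etiolated (dark-grown) seedlings, taken either without light or once they had spent 30 min or 3 h in light, or had been in the light/dark cycle for 24 h. The heat series held seedlings of a cycle of 16 h light at 22 °C and 8 h dark at 20 °C (LD) as a control, after 30 min at 45 °C, and 3 h after a light spray with 0.5% ethanol. Each of the 7 conditions had 1 library, so differences rest on single libraries, without replicate error, and no p-value is given. In such mixed nuclei a site open in fewer cells and a site less open in each cell cannot be told apart.

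SAUR genes encode short plant proteins, and many are transcribed within minutes of auxin addition. In the best studied case SAUR proteins inhibit PP2C.D phosphatases, which leaves plasma membrane proton ATPases active, acidifies the wall and lets cells expand. In seedlings grown in the dark the hypocotyl elongates, and in light it slows while cotyledons open. Phytochrome-interacting factors (PIFs), which accumulate in the dark and are degraded in light, bind the G-box CACGTG and the related E-box CACATG.

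A promoter peak was a deposited peak, nearly always 150 bp wide, that touched the window from 1000 bp upstream to 200 bp downstream of the gene start. The following 7 peaks, which overlap no annotated exon, carry the findings below. They belong to genes whose peaks were lost after 3 h or 24 h of light or stood low in those lists (SAUR15, SAUR6, SAUR26 and SAUR66), to genes with strong peaks in every list (SAUR3 and SAUR4), and to a gene with peaks only in the lists of dark-grown seedlings (SAUR69). Each is on the gene's strand, 5′ to 3′, in TAIR10.1 from RefSeq. Capitals mark CACATG (or CATGTG, its reverse complement), TGTCTC (or GAGACA) and TGTCGG. The SAUR15 peak is chr4:18125861-18126010 (plus strand, LD control list), the SAUR6 peak chr2:9086121-9086270 (minus strand, LD control), the SAUR26 peak chr3:982801-982950 (plus strand, LD control), the SAUR66 peak chr1:10320781-10320930 (plus strand, dark), the SAUR3 peak chr4:16594161-16594310 (plus strand, LD control), the SAUR4 peak chr4:16596401-16596550 (plus strand, LD control) and the SAUR69 peak chr5:3476661-3476810 (plus strand, 3 h of light).
SAUR15: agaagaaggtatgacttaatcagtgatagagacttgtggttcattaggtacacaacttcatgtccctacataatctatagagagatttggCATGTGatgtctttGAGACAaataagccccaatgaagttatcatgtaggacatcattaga
SAUR6: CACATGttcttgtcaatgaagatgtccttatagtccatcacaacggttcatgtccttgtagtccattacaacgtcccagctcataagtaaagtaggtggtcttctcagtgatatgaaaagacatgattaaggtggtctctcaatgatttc
SAUR26: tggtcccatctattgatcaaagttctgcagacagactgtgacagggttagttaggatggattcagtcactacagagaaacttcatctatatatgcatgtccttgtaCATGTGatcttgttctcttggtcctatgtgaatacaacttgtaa
SAUR66: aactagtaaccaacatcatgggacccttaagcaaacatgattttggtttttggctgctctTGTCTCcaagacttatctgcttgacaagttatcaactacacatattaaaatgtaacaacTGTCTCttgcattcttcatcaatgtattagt
SAUR3: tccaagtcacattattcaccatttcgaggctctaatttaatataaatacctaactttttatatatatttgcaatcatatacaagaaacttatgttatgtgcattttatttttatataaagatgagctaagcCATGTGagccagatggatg
SAUR4: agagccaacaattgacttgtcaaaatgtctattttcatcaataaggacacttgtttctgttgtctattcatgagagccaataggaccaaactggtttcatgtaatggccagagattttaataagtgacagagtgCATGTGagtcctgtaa
SAUR69: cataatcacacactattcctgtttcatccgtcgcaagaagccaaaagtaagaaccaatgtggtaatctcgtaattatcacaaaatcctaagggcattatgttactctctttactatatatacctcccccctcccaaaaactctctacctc

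The SAUR genes were short: 65 of the 72 (90.3%) had a single exon, against 18.9% of all nuclear protein-coding genes, and their median coding length was 374 bp against 1047 bp. Of the 72, 29 lay in 8 tandem groups, defined as neighbouring starts at most 10 kb apart with at most 1 other protein-coding gene between them, and 43 lay outside. Their peaks lay farther upstream than those of genes in general. With negative positions upstream of the start, the median midpoint ranged over the 7 lists from -298 bp (heat shock) to -162 bp (30 min of light) at SAUR genes, and from -115 to -95 bp over all genes. Between 99 bp upstream and 200 bp downstream of the start lay 28.1% to 37.3% of peaks at SAUR genes and 45.4% to 49.1% of those at all genes, over the 7 lists.

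The share of SAUR genes with a promoter peak was close to that of all genes in the dark and in the 3 light/dark-grown lists, and lower after 3 h and 24 h of light. The dark list had one at 48 of 72 (66.7%; 60.7% of all genes), the 30 min list at 47 (65.3%; 62.3%), the 3 h list at 41 (56.9%; 68.1%) and the 24 h list at 31 (43.1%; 60.3%). Among light/dark-grown seedlings the LD control had one at 53 (73.6%; 69.9%), the spray control at 49 (68.1%; 67.9%) and the heat shock list at 50 (69.4%; 68.1%). The tandem genes and the others differed in this. Of the 29 tandem genes 23 had a peak in the dark, 23 after 30 min, 15 after 3 h and 9 after 24 h, whereas of the 43 others 25, 24, 26 and 22 did. The lists held 26712 (24 h of light) to 34637 (LD control) nuclear peaks. Of 9 tissue marker genes, SCR, SHR, ATML1 and RBCS1A had a promoter peak in all 7 lists, WOX5 and APL in none, and the light-harvesting gene LHCB1.1 in all but the dark and 30 min lists. The guard cell gene FMA had one in the dark, after 30 min and after heat shock alone, and SPCH, which starts the stomatal lineage, in the LD control and heat shock lists alone. FMA thus had the presence pattern over the dark-grown lists that is described below for 10 SAUR genes; the part of tissue composition in the SAUR results was not tested.

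**Figure D1:**
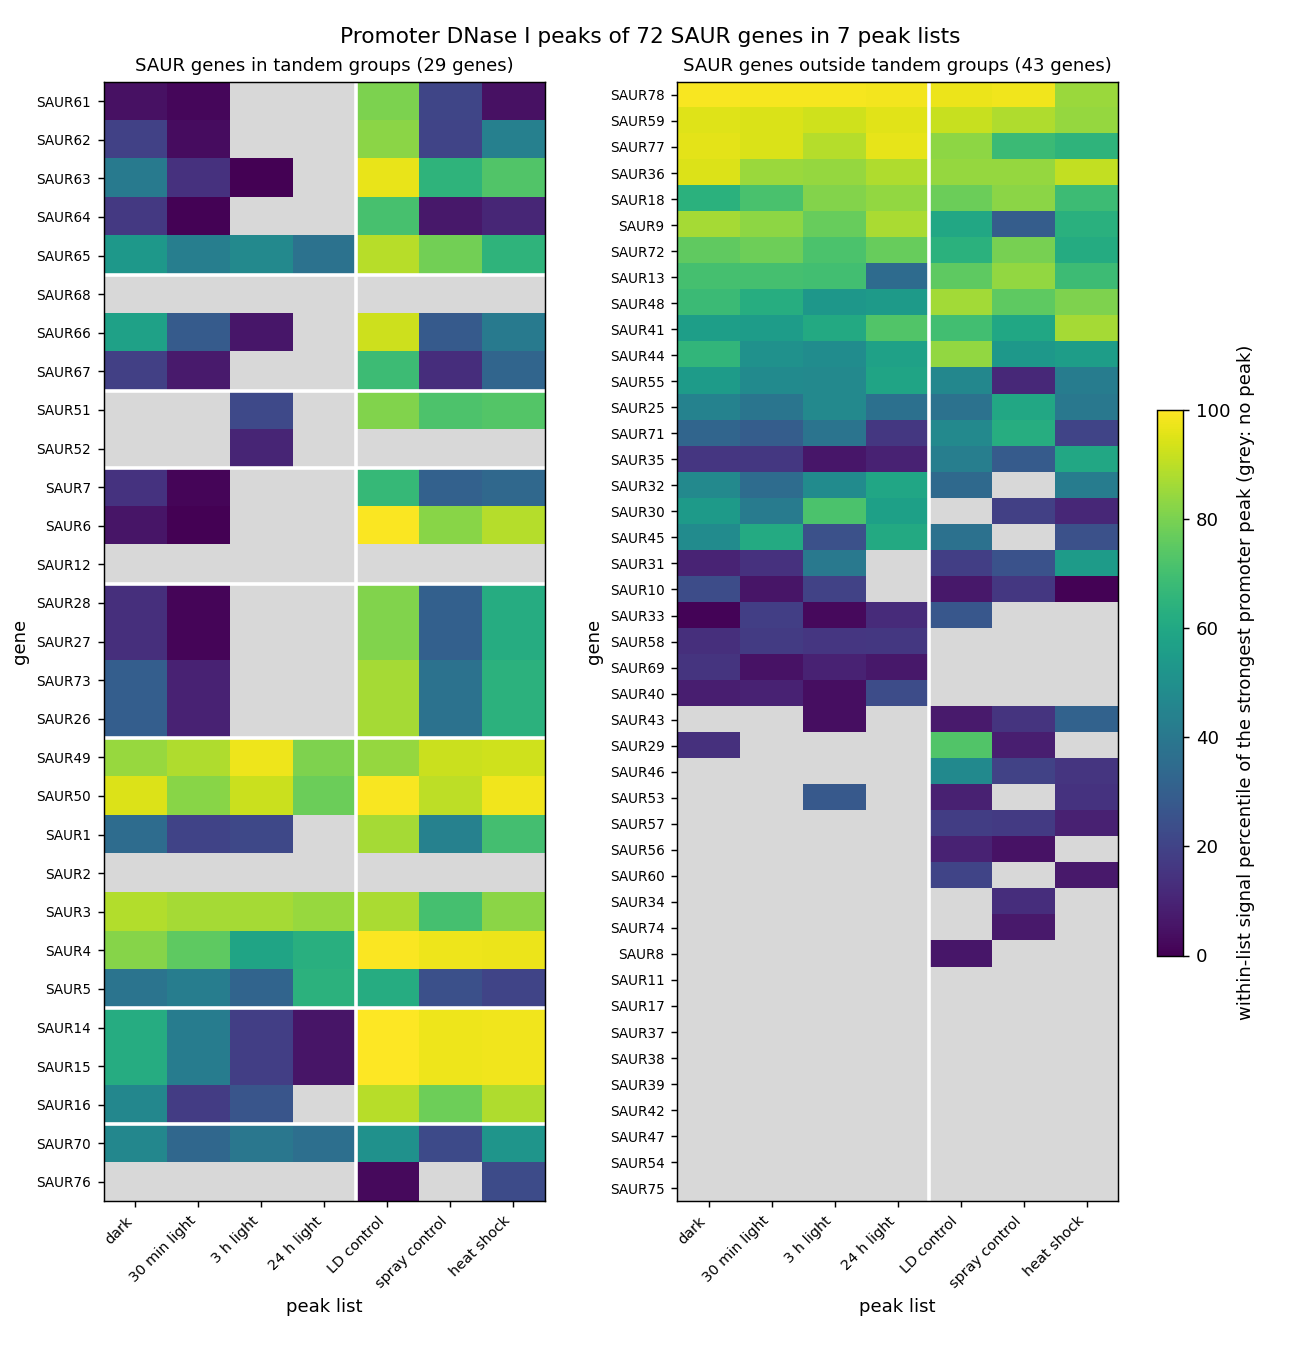
Heat map of the 72 SAUR genes (rows) in the 7 peak lists (columns): colour is the within-list signal percentile of the strongest promoter peak from 0 to 100, grey is no peak, and white lines part tandem groups and the 2 growth series. The 10 tandem genes SAUR61, SAUR62, SAUR64, SAUR67, SAUR6, SAUR7, SAUR26, SAUR27, SAUR28 and SAUR73 show dim cells in the dark and 30 min columns, grey cells at 3 h and 24 h, and brighter cells in the LD control column, while SAUR78, SAUR59, SAUR50 and SAUR3 are bright throughout.

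At these genes lost promoter peaks outnumbered gained ones in all 3 light comparisons. A peak was called lost when it overlapped no peak of the later list by at least 1 bp, and gained in the reverse case. After 3 h of light 23 of 72 SAUR genes had lost a dark peak (31.9%; 6.34% of all genes), and after 24 h 27 had (37.5%; 11%). Of the genes that had a dark peak to lose, 47.9% of SAUR genes and 10.4% of all genes had lost one after 3 h, and 56.2% and 18.1% after 24 h. After 30 min the count was 11 (15.3%; 5.90% of all genes). A lost peak did not always leave the promoter without one. Of the 23 genes at 3 h 11 had no promoter peak in the later list, of the 27 at 24 h 17, and of the 11 at 30 min 1. The others had a peak elsewhere in the window. This split was not counted over all genes. Of the 29 tandem genes 13 had lost a peak after 3 h and 17 after 24 h, and of the 43 others 10 and 10. All 3 of these comparisons use the same dark library, so their values are set side by side only.

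Few SAUR genes gained a peak in light. After 30 min 4 did (5.56%; 6.80% of all genes), after 3 h 6 (8.33%; 13.6%) and after 24 h 3 (4.17%; 7.45%). The 4 at 30 min were SAUR55, SAUR71, SAUR40 and SAUR69, each of which already had another dark peak in its window. At 3 h SAUR51, SAUR52 and SAUR43 had no dark promoter peak, and their gained peaks stood at the 22.0, 10.4 and 3.8 percentile of the 3 h list. The strongest gain at 24 h was at SAUR41, a gene that promotes cell expansion, where a peak at -352 bp stood at the 73.0 percentile. In the same comparison its neighbouring dark peak at -532 bp (51.3 percentile) was called lost. SAUR41 had 3 promoter peaks in the dark and 3 after 24 h.

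**Figure D2:**
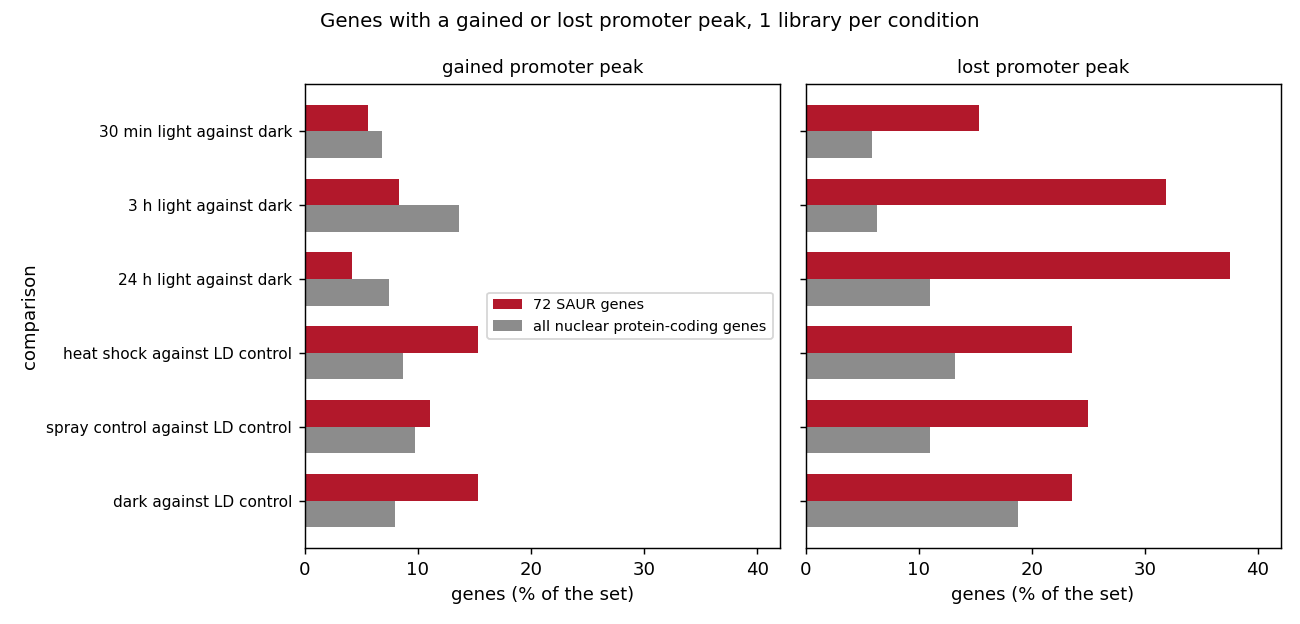
Bars give the percentage of the 72 SAUR genes (red) and of all 27444 nuclear protein-coding genes (grey) with a gained (left) or lost (right) promoter peak in each of 6 comparisons of single libraries. The red bars for lost peaks reach 31.9% after 3 h and 37.5% after 24 h of light, against grey bars of 6.34% and 11%.

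The lost dark peaks were mostly weak ones. The 22 distinct peaks lost after 3 h had a median percentile of 14.9 in the dark list, and 2 of them lay in its upper 50% by signal; of the 27 lost after 24 h 4 did. Weak dark peaks were lost more often over all genes as well, so the share was taken among genes with a dark promoter peak in the lower 50% of the list. There 21 of 30 SAUR genes had lost such a peak after 3 h (70.0%; 15.2% of 9150 genes), 23 of 30 after 24 h (76.7%; 27.7%) and 11 of 30 after 30 min (36.7%; 15.6%). In the lower 20% of the list 16 of 19 had lost one after 3 h (84.2%; 20.5% of 3643 genes) and 16 of 19 after 24 h (84.2%; 43.2%). These backgrounds were chosen after the values were seen.

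The strongest lost peak at both times was at SAUR59, at -109 bp from its start and the 75.2 percentile of the dark list with a signal of 249; SAUR59 had other peaks in every list. At 3 h it was followed by SAUR55 at the 51.3 percentile, SAUR63, whose subfamily promotes hypocotyl elongation, at 41.1, SAUR13 at 40.6, and SAUR26 with SAUR73, which share a peak, at 29.8. At 24 h it was followed by SAUR66 at 57.2, SAUR41 at 51.3, SAUR49 at 50.2, SAUR16 at 46.3 and SAUR63 at 41.1. SAUR66, SAUR16 and SAUR63 were left without any promoter peak at 24 h, and the other 3 genes kept another one.

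Of the 72 SAUR genes 10 (13.9%) had a promoter peak in the dark and after 30 min of light and none after 3 h and 24 h, a pattern seen at 0.317% of all genes. They were SAUR61, SAUR62, SAUR64 and SAUR67 on chromosome 1, SAUR6 and SAUR7 on chromosome 2, and SAUR26, SAUR27, SAUR28 and SAUR73 on chromosome 3, where SAUR26 to SAUR28 are known for their part in growth at warmer temperature. All 10 lay in tandem groups. Their strongest peaks were near the bottom of the lists: from the 4.3 to the 29.8 percentile in the dark (median 15.6) and from 0.1 to 9.5 after 30 min (median 1.6). With every list cut to its 26712 strongest peaks, the pattern was found at 4 SAUR genes against 0.368% of all genes. The pattern was defined after the values were seen. A further 6 SAUR genes (8.33%; 2.59% of all genes) had peaks in the dark, after 30 min and 3 h and none after 24 h: SAUR63, SAUR66, SAUR10, SAUR31, SAUR1 and SAUR16. Of the SAUR19 to SAUR24 cluster, all 6 genes had a peak in the dark and none did after 3 h or 24 h.

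The same 10 genes had peaks in all 3 light/dark-grown lists. Their strongest peaks stood from the 66.8 to the 99.3 percentile in the LD control (median 81.0), from 6.4 to 82.3 in the spray control (median 30.7) and from 4.6 to 88.8 in heat-shocked seedlings (median 52.9). Percentiles place a peak within its own list, and since lists differ in length, and read depth per list is unknown, they show no change between lists. SAUR6 gives the widest spread: the 5.5 percentile in the dark, 0.1 after 30 min, no peak after 3 h and 24 h, 99.3 in the LD control, 88.8 after heat shock and 82.3 with the spray. Its LD control peak is the SAUR6 sequence above, at -166 bp.

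The chromosome 1 group of SAUR61 to SAUR65 spans 6.9 kb and its coding sequences share 61.3% to 89.0% of aligned bases. All 5 genes had a peak in the dark (4.3 to 53.4 percentile) and after 30 min (0.6 to 42.7), 2 had one after 3 h and only SAUR65 after 24 h, at 37.5. All 5 had one in the LD control, at 70.9 to 96.6. In the next group, SAUR68 had no peak in any list, while SAUR66 stood at 57.2 in the dark, 28.7 after 30 min and 6.1 after 3 h and SAUR67 at 18.8 and 7.3 in the first 2 of these lists. Reads from near copies could be lost or split in this region, which was not tested. In the SAUR63 window 30.7% of the 30-base words occur elsewhere in the nuclear genome. So do 19.8% at SAUR67, 16.4% at SAUR61, 12.8% at SAUR65 and 10.3% at SAUR68. Over all 72 genes 6 windows exceeded 10%, and among the 10 genes above only SAUR61 and SAUR67 did.

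On chromosome 3 the peaks lay between divergent starts and were shared. SAUR28 and SAUR27 shared a peak at the 13.4 percentile in the dark and 1.2 after 30 min, and SAUR73 and SAUR26 shared one at 29.8 and 9.5, so the loss at these 4 genes is the loss of 2 peaks. In the LD control SAUR28 and SAUR27 shared 2 peaks, at 81.0 and 78.5, and SAUR73 and SAUR26 shared 1 at 86.6. SAUR29, a gene beside this group, had a peak in the dark at 14.0, in the LD control at 72.9 and in the spray control at 8.4, and none in the other 4 lists.

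SAUR14, SAUR15 and SAUR16 on chromosome 4 kept a peak for longer. SAUR15, the founding Arabidopsis SAUR gene, and SAUR14 are divergent and share a peak, whose sequence is given above; it holds CATGTG and GAGACA. It stood at the 62.0 percentile in the dark, 42.1 after 30 min, 18.5 after 3 h and 5.6 after 24 h, and at 99.8 in the LD control, 97.7 after heat shock and 97.5 with the spray. It was present in all 7 lists. SAUR16 stood at 46.3, 17.8 and 26.2 in the first 3 lists, had no peak after 24 h, and stood at 89.2, 78.0 and 88.2 in the light/dark-grown lists.

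**Figure D3:**
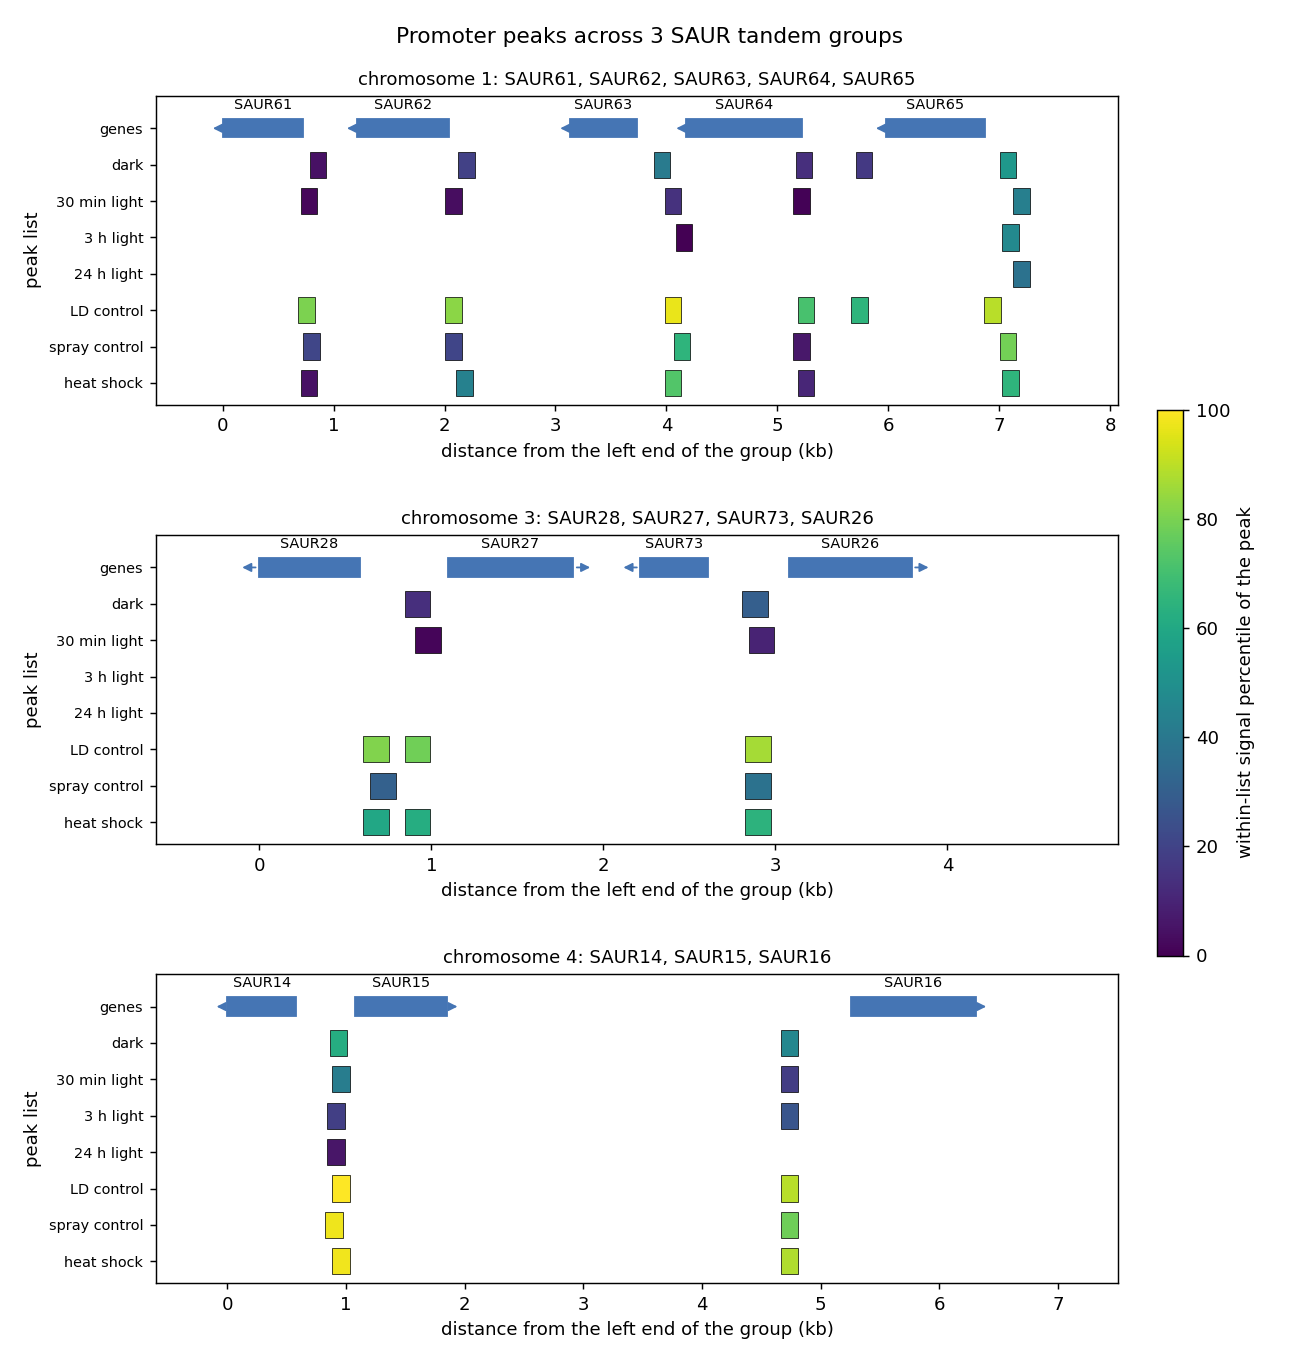
Maps of 3 tandem groups: blue boxes are genes with arrows in the direction of transcription, and boxes below are promoter peaks in each of the 7 lists, placed by distance in kb and coloured by within-list signal percentile. The chromosome 3 group has no box in the 3 h and 24 h rows, the chromosome 1 group keeps one at SAUR65 after 24 h, and SAUR14 with SAUR15 keep one in every row.

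Other SAUR genes had strong peaks in every list. Promoter peaks in all 7 lists were found at 24 of the 72 (33.3%; 52.4% of all genes). The 8 with the highest median percentile of their strongest peak were SAUR78 (98.3), SAUR59 (92.7), SAUR50 (91.8), SAUR77 (88.9), SAUR49 (88.1), SAUR3 (86.5), SAUR36 (85.1) and SAUR4 (82.0). SAUR77 and SAUR78 are known to bind ethylene receptors, SAUR36 promotes leaf senescence, and SAUR50 promotes cotyledon opening in light. SAUR50, SAUR49, SAUR3 and SAUR4 lie in a 22.4 kb group on chromosome 4 with SAUR1, SAUR2 and SAUR5. In that group 6 of 7 genes had a peak in the dark, after 30 min and after 3 h, and 5 after 24 h, when SAUR1 had none; SAUR2 had none in any list. SAUR72 stood between 61.5 and 79.3 in the 7 lists and SAUR9, an inhibitor of PP2C.D phosphatases, between 29.6 and 87.2.

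No promoter peak in any list was found at 12 SAUR genes (16.7%; 23.4% of all genes): SAUR2, SAUR11, SAUR12, SAUR17, SAUR37, SAUR38, SAUR39, SAUR42, SAUR47, SAUR54, SAUR68 and SAUR75. SAUR17 takes part in apical hook development in the dark. Of these, the SAUR75 window had 31.2% of its 30-base words elsewhere in the genome. The other windows but SAUR68 were under 10%.

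Of the 72 SAUR genes 3 (4.17%; 0.372% of all genes) had peaks in all 4 lists of dark-grown seedlings, the lit ones included, and in none of the 3 light/dark-grown lists. SAUR58 stood at the 13.4, 17.4, 15.7 and 16.2 percentile in the dark and after 30 min, 3 h and 24 h, SAUR40 at 8.4, 9.5, 3.8 and 23.1, and SAUR69 at 15.2, 5.0, 9.5 and 6.4. All of these are weak peaks. At SAUR69 the site differed: the dark peak lay at 215 bp downstream and was lost in all 3 light comparisons, and the gained peaks lay at -85, -85 and -45 bp. At SAUR58 and SAUR40 these strongest peaks lay from -3 to 57 bp of the start. The reverse pattern, peaks in all 3 light/dark-grown lists alone, was found at SAUR46 and SAUR57 (2.78%; 1.85% of all genes). SAUR32, which acts in the apical hook, had a peak in every list but the spray control (34.3 to 59.2), and SAUR10 in every list but 24 h of light (0.6 to 23.2).

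Dark and LD control, which differ in growth for all 7 days, were also compared directly. Against the LD control 11 SAUR genes had a gained peak in the dark (15.3%; 7.97% of all genes) and 17 a lost one (23.6%; 18.8%). The strongest gained peak was at SAUR9, at -179 bp and the 86.5 percentile of the dark list. SAUR66 had both calls, a dark peak at -156 (57.2 percentile, the sequence above) and an LD control peak at 44 bp downstream of its start (92.3). SAUR30, SAUR58, SAUR40 and SAUR69 had a dark peak and none in the LD control. SAUR51, at the 80.9 percentile of the LD control, was among 9 genes with the reverse. Neither set was counted over all genes.

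Heat shock was compared with the LD control. A gained peak was found at 11 SAUR genes (15.3%; 8.70% of all genes) and a lost one at 17 (23.6%; 13.2%). The spray control had no heat. Against the same LD control library it gave 8 with a gained peak (11.1%; 9.77%) and 18 with a lost one (25.0%; 11%). The part of heat in these counts was not tested. Among genes with an LD control peak in the lower 50% of its list, 10 of 20 SAUR genes had lost one after heat shock (29.7% of 9736 genes). Most heat calls were at genes with a promoter peak in both lists. Of the 17 with a lost peak 4 had none after heat shock, SAUR29, SAUR56, SAUR8 and SAUR33. Of the 11 with a gained peak SAUR30 alone had none in the LD control. This split was not counted over all genes. Both calls were made at 4 genes, SAUR65, SAUR51, SAUR7 and SAUR57. SAUR65 had 1 promoter peak in each list, a lost one at -69 (89.4 percentile of the LD control) and a gained one at -229 (64.9 percentile of the heat shock list). SAUR51 had a lost peak at -102 (80.9) and a gained one at -382 (73.1). SAUR27 and SAUR28 kept both shared peaks after heat shock, at 59.4 and 62.1, and had 1 shared peak in the spray control. SAUR76, which binds ethylene receptors, stood at 23.0 in heat-shocked and at 2.6 in LD control seedlings, with no peak in the spray control.

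Motif letters were counted in the stretch from 250 bases before to 50 bases after each start, on both strands, as a description; the heat shock element was GAA, any 2 letters, TTC. The E-box CACATG was found at 29 of 72 SAUR genes (40.3%) and in 12.9% of all promoters of the same length. It was at 20 of the 29 tandem genes (69.0%) and 9 of the 43 others (20.9%), and at 9 of the 10 genes with peaks in the dark and after 30 min only among the light series. Tandem genes may descend from common copies, which was not tested, so their matches are not treated as independent. Coding identity between genes of a tandem group ranged from 40.0% to 89.0%. Inside peaks, CACATG was in 38.1% of the 63 distinct dark peaks at SAUR genes against 9.93% of promoter peaks of that list, in 24.0% against 8.95% after 3 h, in 17.9% against 9.02% after 24 h and in 41.2% against 10.7% in the LD control.

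The other motifs were counted in the same stretch. The G-box CACGTG was rarer at SAUR genes than over all promoters, at 1 gene (1.39%; 7.68% of all promoters). The auxin response element TGTCTC was at 9 (12.5%; 14.2%) and TGTCGG at 2 (2.78%; 5.12%). The brassinosteroid elements CGTGTG and CGTGCG were at 4 (5.56%; 6.52%) and 3 (4.17%; 1.96%). The heat shock element was at 10 (13.9%; 11.6%), the W-box TTGACC at 11 (15.3%; 14.2%) and TATAAA at 44 (61.1%; 52.1%). On the gene's own strand 50 to 6 bases before the start, TATAAA was at 13 SAUR genes (18.1%; 10.3%). Inside peaks, TGTCTC was in 11 of 63 distinct dark peaks at SAUR genes (17.5%; 9.33% of promoter peaks of that list), in 14.0% against 8.89% after 3 h and, in the LD control, in 6 of 68 (8.82%; 10% of promoter peaks of that list). In the promoter stretch it was at 4 of the 10 genes with peaks in the dark and after 30 min only. The heat shock element was in 6 of 60 peaks after heat shock (10%; 4.96%) and in 6 of 68 in the LD control (8.82%; 4.87%).

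**Figure D4:**
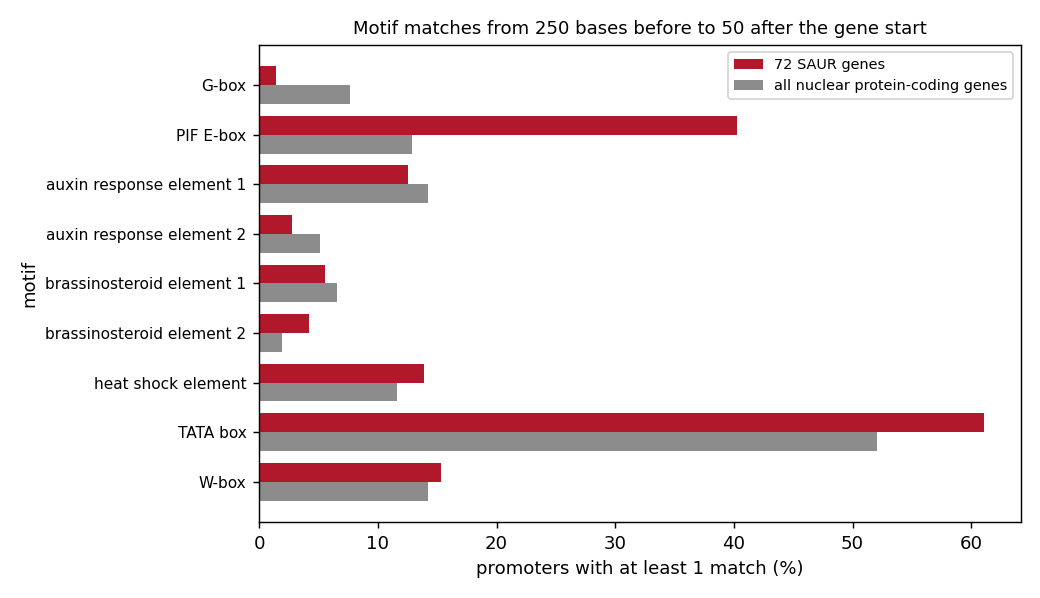
Bars give the percentage of the 72 SAUR promoters (red) and of all nuclear protein-coding promoters (grey) with at least 1 match to each motif on either strand. The PIF E-box bars stand at 40.3% and 12.9%, and the G-box bars at 1.39% and 7.68%.

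Other genes of auxin signalling and of the PP2C.D pathway were counted in the same way, beside all-gene shares of 6.34% lost and 13.6% gained after 3 h and 11% lost and 7.45% gained after 24 h. Of 9 PP2C.D phosphatase genes, 2 had a lost peak after 3 h and 3 after 24 h (AT5G02760 and AT4G38520 at both), and 2 and 1 a gained one. Of 11 plasma membrane proton ATPase genes, none had a gained or lost peak after 3 h and 1, HA4, had a lost one after 24 h. All 6 auxin receptor genes of the TIR1 and AFB family had a promoter peak in all 7 lists, as did 52.4% of all genes. Of these, 1, GRH1, had a lost peak both after 3 h and after 24 h, and none had a gained one at either time. Of 21 auxin response factor genes, 1 had a lost and 3 a gained peak after 3 h, and 3 and 0 after 24 h. Of 20 GH3 genes, whose products conjugate auxin and other hormones, 2 had a lost and 3 a gained peak after 3 h, and 1 and 2 after 24 h.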

How the data were processed

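DNase I-seq was done on 14 samples in 7 conditions, and 6 RNA-seq samples were not analysed here. The single-end and paired-end peak files of each library were byte-identical and counted once, so there was 1 library per condition. Per the labels' protocols, biotin-captured nuclei were digested at 25 °C for 3 min with DNase I (45 units), and short fragments cut at both ends were sequenced. CASAVA 1.8.2, Bowtie 0.12.7 and the build TAIR10 are named in the submitters' processing notes; which peak caller and threshold the authors used is not stated there. The design text mentions samples subsampled to equal read depth, without marking which, and read depth is unknown.

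The deposited signal column holds 1 whole number per peak, with no normalization seen; it served only to give each peak a percentile within its own list. The deposited −log10 p column ends at 324 in every list and was not used.

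Nuclear chromosomes of TAIR10.1 (RefSeq) gave gene positions, 1-based; moving dark peaks by 5000 bp took the share in promoter windows from 59.8% to 27.8%. A peak was gained or lost when it overlapped no peak of the other list by 1 bp. Shares of all 27444 genes with the same call stand beside the main counts. Calls were run on simulated lists with known gains and losses, in which every shared peak still overlapped its partner. A shared peak moved beyond overlap, which would be called both lost and gained, was not simulated. Coding sequences were aligned globally with Biopython 1.88 in Python 3.11.15. The members and lists were chosen with earlier results of these data known. Named genes were up to 6 with the strongest gained and lost peaks per main comparison, the 8 strongest with peaks in all lists, those with no peak, tandem groups of at least 3 genes and 18 genes always named. SAUR58, SAUR40, SAUR69, SAUR46 and SAUR57 and others with a described pattern were chosen after their values were seen.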

Additional observations from a re-analysis of the deposited data

How the results depend on the processing

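Of 121 counts recomputed under an alternative setting, 85 stayed within 1.5 times the reported count. Counting AT5G18030 as a member, an alternative added after the data were seen, moved no count by more.

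The stricter threshold, gained or lost peaks in the upper 50% of their list, moved all 12 counts. Gained became 0 after 30 min, 0 after 3 h and 1 after 24 h of light, 5 after heat shock, 0 in the spray control and 6 in the dark against the LD control. Lost became 0, 2, 4, 7, 5 and 6 in the same order. Of all genes, 0.747%, 1.34%, 1.88% and 2.74% had such a lost peak after 30 min, 3 h, 24 h and heat shock, against 0.00%, 2.78%, 5.56% and 9.72% of SAUR genes; for gains they were 0.689%, 1.46%, 1.14% and 1.81% against 0.00%, 0.00%, 1.39% and 6.94%. SAUR genes with a promoter peak of that strength were 21 in the dark (29.2%; 33.1% of all genes) and 16 after 30 min (22.2%; 34.1%). They were 15 after 3 h (20.8%; 38%) and 19 after 24 h (26.4%; 31.2%). The count was 30 after heat shock (41.7%; 37.4%) and 23 with the spray (31.9%; 41.2%). In the LD control it was 36 of 72, against 40.7% of all genes. For peaks of that strength the SAUR share was thus below that of all genes in the dark already.

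With an overlap of 75 bp needed to count as shared, gained became 11 after 30 min, 6 after 24 h and 18 after heat shock. It became 16 in the spray control and 19 in the dark against the LD control. Lost became 17 after 30 min and 26 in the dark against the LD control. No all-gene share was taken at the 75 bp setting, so these rises cannot be set against those of genes in general. With a distance of over 150 bp required, gained after 24 h became 1 (1.39% against 5.92% of all genes). After heat shock that distance left 8 genes with a gained peak (11.1%; 6.65% of all genes) and 12 with a lost one (16.7%; 11.2%).

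In the narrow window, 500 bp upstream to 100 bp downstream, lost became 6 after 30 min (8.33% against 3.94% of all genes). Gained became 7 after heat shock (9.72% against 5.75%). Lost became 11 in the spray control and 10 in the dark against the LD control, and gained became 7 in the latter. For these comparisons with the spray control and the dark, no all-gene share was taken under the alternative settings. With lists of equal length, gained became 1 after 3 h (1.39% against 9.35% of all genes) and 5 in the spray control. Lost in the dark against the LD control became 11. The 2 patterns of peaks missing after 3 h or 24 h became 4 and 3 genes, where 0.368% of all genes had the first pattern. The cause of these differences was not tested.

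Losses after 3 h and 24 h of light ranged from 18 to 21 and from 21 to 25 genes in the narrow window, with equal lists, with a distance over 150 bp and by nearest start, where 4.04% to 6.63% and 7.65% to 9.48% of all genes had such a loss. No paired analysis was possible because each condition has 1 library and the result comes from no test. With 1 library per condition and unknown read depth, a peak missing from a list may be open below its threshold.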
